A study of Mus musculus with 10 samples.

Results

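The genes described are 10 members of the mammalian circadian clock and its close targets: Bhlhe40, Bhlhe41, Hlf, Per1, Per2, Per3, Cry1, Cry2, Clock and Arntl. They were taken by gene symbol wherever 1 of the 4 deposited tables listed them, and 8 of the 10 were listed in at least 1 table, among 8694 genes listed in any. Per2 and Cry1 were listed in none. Each table lists almost only genes that the authors' DESeq2 test called, so every listed member had passed that test, and the set was selected on measured values, among them the fall of Bhlhe40 and Hlf in Mbd3ab KO. Values of those 2 genes in Mbd3ab KO are therefore given as a description.

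The circadian clock is a feedback loop of transcription. Clock and Arntl (also called Bmal1) pair and bind E-boxes, the DNA letters CACGTG, and so switch on the Per and Cry genes, whose proteins then inhibit the pair. Bhlhe40 and Bhlhe41 (Dec1 and Dec2) are repressors that bind the same E-boxes, and Hlf belongs with Dbp and Tef to a family of activators that bind D-boxes downstream of the loop. Undifferentiated mouse embryonic stem cells are known to express several of these genes without the daily rhythm that appears as they differentiate.

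RNA was sequenced from E14 mouse embryonic stem cells, a widely used line grown on gelatin, and from 4 lines made from it with CRISPR/Cas9 mutations in Mbd3, with 2 libraries per group. Mbd3 is a core component of NuRD, a chromatin complex that remodels nucleosomes and removes acetyl groups from histones. The Mbd3ab KO line (genotype Mbd3ab -/-) was mutated in exon 2, the Mbd3c KO line (Mbd3c -/-) in intron 2, the Mbd3abc KO line (Mbd3abc -/-) in exon 5 and the Mbd3cΔN-ab KO line (Mbd3cdeltaN; ab-/-) in exon 2. Wild type (WT) E14 cells were the control in all 4 tables, so comparisons with WT share those libraries. The labels do not state whether each mutant's 2 libraries are separate clones, nor the hour of collection or any synchronisation of the cells. p-values then measure the spread between these libraries only.

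Mbd3 RNA was 2.61-fold lower in Mbd3ab KO, 13.0-fold lower in Mbd3abc KO and 5.57-fold lower in Mbd3cΔN-ab KO than in WT, and was not listed in Mbd3c KO. Reads in the listed genes ranged from 5734989 to 9027663 per library in the Mbd3abc KO table and from 4217977 to 7468853 in the Mbd3cΔN-ab KO table. These are parts of each library, and total depth is unknown. Levels are recovered reads divided by the size factor of the library, called normalized reads here, and are comparable within a table only. Refits against WT, named below, could use only the listed genes, unlike the authors' fit. A call lost in a refit is therefore not a like-for-like repeat of their test.

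In Mbd3ab KO 2 of the 10 genes were called, both lower, where 3.35% of all genes tested were called, 2.05% higher and 1.3% lower. In Mbd3abc KO 8 of 10 were called, 2 higher and 6 lower, where 52.1% of all genes tested were called, 27.1% higher and 24.9% lower. In Mbd3cΔN-ab KO 5 of 10 were called, 2 higher and 3 lower, against 41.5% of all genes tested, 21.1% higher and 20.4% lower. In Mbd3c KO none was called, where 0.353% of all genes tested were, 0.316% higher and 0.0372% lower, and no value of these genes is listed there. The shares in Mbd3abc KO and Mbd3cΔN-ab KO are read against tables in which a large part of the transcriptome was called. Of the called members Clock and Arntl were higher, and Bhlhe40, Bhlhe41, Per1, Per3, Cry2 and Hlf were lower, in every table that listed them. That made 11 lower and 4 higher values over the tables. In none did the mutant and WT libraries overlap, but all of these values had been selected by being called.

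**Figure D1:**
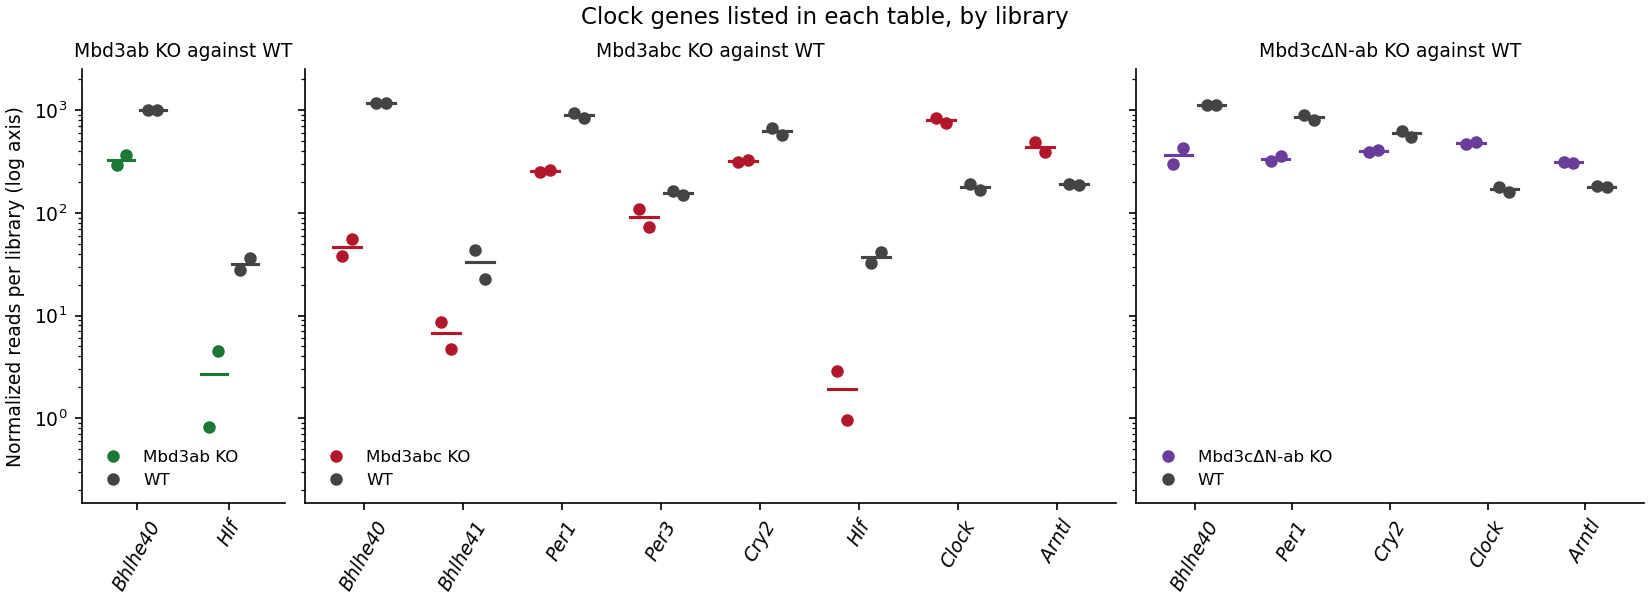
Normalized reads per library (log axis) of each listed clock gene, in 1 panel per table, with mutant libraries left of WT libraries and a bar at the mean of 2. Clock and Arntl lie above WT and the other genes below it. Bhlhe40 in Mbd3abc KO, at 37.7 and 55.3, is farther from its WT libraries than any other gene with more than 10 reads per library.

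Promoter windows from RefSeq (GRCm38.p6, the mm10 build) run from 250 bases before to 50 bases after a transcription start. They were searched on both strands for the E-box CACGTG, the D-box (TTATGTAA or TTATGCAA), the ROR and REV-ERB element (TAGGTCA or TGGGTCA) and the cAMP response element TGACGTCA. Windows were matched for 8 of the 10 genes, 12 windows in all, and not for Bhlhe40 and Per2. Of 32851 windows in the whole table, 7.15% held the E-box, 1.66% a D-box, 6.45% the ROR and REV-ERB element and 1.79% the cAMP response element. The 5 windows of listed genes that held a motif are shown to let the letters be set beside the expression values, 5′ to 3′ on the strand of the gene, with motif letters in capitals. The Bhlhe41 window, chr6:145865371-145865670 on the minus strand, has 1 E-box. The Hlf window, chr11:90390868-90391167 on the minus strand, has 1 cAMP response element that ends 2 bases before the start. The upstream Per1 window, chr11:69098699-69098998 on the plus strand, has an E-box and a D-box, and its start lies 1209 bases before that of the listed transcript. The Per3 window, chr4:151044616-151044915 on the minus strand, has 2 D-boxes. The Arntl window, chr7:113207261-113207560 on the plus strand, has the ROR and REV-ERB element 30 to 36 bases after a start that lies 46 bases downstream of that of the listed transcript.
Bhlhe41: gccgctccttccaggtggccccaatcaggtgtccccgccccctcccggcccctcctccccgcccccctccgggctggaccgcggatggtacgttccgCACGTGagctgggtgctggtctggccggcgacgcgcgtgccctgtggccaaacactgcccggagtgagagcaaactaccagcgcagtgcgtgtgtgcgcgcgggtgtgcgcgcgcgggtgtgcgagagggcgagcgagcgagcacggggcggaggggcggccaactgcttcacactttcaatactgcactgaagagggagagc
Hlf: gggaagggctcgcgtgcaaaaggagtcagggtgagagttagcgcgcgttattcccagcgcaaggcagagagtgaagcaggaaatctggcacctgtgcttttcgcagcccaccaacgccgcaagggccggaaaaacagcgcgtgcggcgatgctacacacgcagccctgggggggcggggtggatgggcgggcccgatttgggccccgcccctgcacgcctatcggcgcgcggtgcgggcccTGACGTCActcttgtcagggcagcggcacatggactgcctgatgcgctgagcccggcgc
Per1: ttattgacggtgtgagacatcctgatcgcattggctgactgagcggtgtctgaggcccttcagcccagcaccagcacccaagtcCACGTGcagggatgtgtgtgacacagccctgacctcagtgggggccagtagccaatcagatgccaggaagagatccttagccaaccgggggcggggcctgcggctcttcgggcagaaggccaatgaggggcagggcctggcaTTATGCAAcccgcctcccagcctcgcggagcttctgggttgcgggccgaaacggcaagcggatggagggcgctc
Per3: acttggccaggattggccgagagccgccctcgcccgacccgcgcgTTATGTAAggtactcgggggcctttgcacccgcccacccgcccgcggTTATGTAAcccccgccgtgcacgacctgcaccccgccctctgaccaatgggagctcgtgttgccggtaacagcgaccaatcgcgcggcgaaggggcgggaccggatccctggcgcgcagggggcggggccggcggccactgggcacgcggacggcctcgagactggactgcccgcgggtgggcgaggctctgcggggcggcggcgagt
Arntl: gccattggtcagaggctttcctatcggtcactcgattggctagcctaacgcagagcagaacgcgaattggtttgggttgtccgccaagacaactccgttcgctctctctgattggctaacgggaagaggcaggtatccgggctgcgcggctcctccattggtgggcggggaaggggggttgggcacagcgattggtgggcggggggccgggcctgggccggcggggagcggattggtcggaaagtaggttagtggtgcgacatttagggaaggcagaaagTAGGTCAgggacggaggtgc
None of these motifs overlapped another. The windows of Clock and Cry2 held none of the 4 motifs, nor did the Per1 window 6 bases from the listed transcript's start or the Arntl window at the listed start, and that of Cry1, which was not listed, held 1 E-box. A match is a description of letters, not a bound site.

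Bhlhe40, the E-box repressor that also responds to hypoxia and retinoic acid in many cells, lies at chr6:108660629-108666925 on the plus strand (transcript NM_011498). In Mbd3ab KO it had 293 and 366 normalized reads, against 1014 and 1012 in WT. In Mbd3abc KO it had 37.7 and 55.3 normalized reads, against 1182 and 1165 in WT. Both mutants lie below WT, Mbd3abc KO by far the more so. In Mbd3cΔN-ab KO it had 302 and 429 normalized reads, against 1122 and 1113 in WT. The WT libraries were close to each other in every table, and the mutant libraries lay further apart than the WT libraries, with no overlap. In bulk RNA, fewer cells expressing a gene and less RNA per cell cannot be told apart.

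In means, Bhlhe40 was at 329 ± 51.4 normalized reads in Mbd3ab KO and 1013 ± 1.24 in WT (SD, n = 2 each), 3.07-fold lower, with a deposited log2 fold change of -1.52 ± 0.21 (SE). In Mbd3abc KO it was at 46.5 ± 12.5 and in WT at 1173 ± 12.1 (SD, n = 2 each), 25.2-fold lower. The authors' deposited table gives a DESeq2 log2 fold change of -4.53 ± 0.22 (SE) there, with adjusted p = 3.57e-89. In Mbd3cΔN-ab KO it was at 366 ± 90.1 and in WT at 1117 ± 5.96 (SD, n = 2 each), 3.06-fold lower. The authors' deposited DESeq2 log2 fold change was -1.54 ± 0.22 (SE), with adjusted p = 1.22e-10. The deposited log2 fold changes are shrunken towards 0 and can be smaller than the ratio of means. In Mbd3ab KO the Bhlhe40 call was lost in the edgeR, limma and DESeq2 refits with all 4 libraries. The same refits kept it in Mbd3abc KO and Mbd3cΔN-ab KO.

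Bhlhe41, the paralog of Bhlhe40, lies at chr6:145858243-145865420 on the minus strand and was listed in Mbd3abc KO only. It had 8.70 and 4.77 normalized reads in Mbd3abc KO, from 9 and 5 reads, against 43.8 and 22.8 in WT, from 34 and 28 reads. Both mutant libraries lie below both WT libraries, at levels where few reads set the value. Summed over libraries and corrected for size factors it was 4.61-fold lower (95% exact Clopper-Pearson interval 2.55 to 8.91, counting error only). The authors' deposited DESeq2 log2 fold change was -1.80 ± 0.57 (SE), with adjusted p = 0.00379. The call was lost in a DESeq2 refit without any 1 of the 4 libraries.

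Per1, a light- and hormone-induced repressor of the loop, lies at chr11:69100158-69109957 on the plus strand. It had 249 and 259 normalized reads in Mbd3abc KO, against 938 and 843 in WT. In Mbd3cΔN-ab KO it had 318 and 357, against 891 and 806 in WT. The mutant libraries of each table lie near each other and well below both WT libraries. In means Per1 was at 254 ± 6.48 in Mbd3abc KO and 891 ± 67.2 in WT (SD, n = 2 each), 3.51-fold lower, with a deposited DESeq2 log2 fold change of -1.79 ± 0.15 (SE) and adjusted p = 1.70e-30. In Mbd3cΔN-ab KO it was at 338 ± 28.1 and in WT at 848 ± 59.9 (SD, n = 2 each), 2.51-fold lower, with adjusted p = 2.43e-14 by the authors' DESeq2 test.

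Cry2, a partner of the Per proteins in repression, lies at chr2:92403647-92434069 on the minus strand. It had 314 and 329 normalized reads in Mbd3abc KO, against 667 and 578 in WT, 1.94-fold lower. It had 393 and 412 in Mbd3cΔN-ab KO, against 633 and 553 in WT, 1.47-fold lower. The mutant libraries lay close together and below WT in both tables. The authors' deposited DESeq2 log2 fold changes were -0.94 ± 0.16 (SE), with adjusted p = 5.96e-08, in Mbd3abc KO, and -0.54 ± 0.16, with adjusted p = 0.00293, in Mbd3cΔN-ab KO. In DESeq2 refits with 1 library left out, the Mbd3cΔN-ab KO call was lost whichever library was missing and the Mbd3abc KO call was lost without the first WT library.

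Per3, the third Per gene and the least essential for rhythm in mouse, lies at chr4:151003655-151044665 on the minus strand and was listed in Mbd3abc KO only. It had 109 and 73.5 normalized reads there, against 163 and 148 in WT, 1.70-fold lower. The gap between the higher mutant library and the lower WT library is about as wide as the spread of the mutant libraries. The authors' deposited DESeq2 log2 fold change was -0.73 ± 0.30 (SE), with adjusted p = 0.0290, the listed member nearest to the threshold of 0.05. The call was lost in a DESeq2 refit with all 4 libraries and without any 1 of them.

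Clock, the bHLH-PAS activator that gave the loop its name, lies at chr5:76209868-76304792 on the minus strand. It had 833 and 755 normalized reads in Mbd3abc KO, against 189 and 166 in WT. In Mbd3cΔN-ab KO it had 464 and 490, against 180 and 159 in WT. Every mutant library lies above every WT library of its table by more than either group's spread. In means Clock was at 794 ± 55.6 in Mbd3abc KO and 178 ± 16.2 in WT (SD, n = 2 each), 4.46-fold higher, with a deposited DESeq2 log2 fold change of 2.13 ± 0.17 (SE) and adjusted p = 7.38e-34. In Mbd3cΔN-ab KO it was 2.82-fold higher, with a deposited DESeq2 log2 fold change of 1.46 ± 0.17 (SE) and adjusted p = 1.68e-15.

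Arntl, the partner of Clock, lies at chr7:113207465-113314126 on the plus strand. It had 487 and 390 normalized reads in Mbd3abc KO, against 192 and 187 in WT, 2.32-fold higher. It had 315 and 305 in Mbd3cΔN-ab KO, against 182 and 179 in WT, 1.72-fold higher. The rise was smaller than that of Clock in both tables as a ratio of means. The authors' deposited DESeq2 log2 fold changes were 1.19 ± 0.21 (SE), with adjusted p = 6.12e-08, in Mbd3abc KO, and 0.76 ± 0.17, with adjusted p = 5.26e-05, in Mbd3cΔN-ab KO. The Mbd3cΔN-ab KO call was lost in DESeq2 refits without any 1 of the 4 libraries.

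Hlf, the D-box activator, lies at chr11:90336535-90390917 on the minus strand and was expressed at a low level in WT. In Mbd3ab KO it had 0.815 and 4.52 normalized reads, from 1 and 3 reads, against 27.6 and 36.1 in WT, from 25 and 51 reads. In Mbd3abc KO it had 2.90 and 0.956 normalized reads, from 3 and 1 reads, against 32.2 and 41.6 in WT. In both mutants it was near the limit of detection in each library. As a description, the ratio of summed reads was 15.5-fold lower in Mbd3ab KO than in WT, from 4 reads against 76. It was 19.8-fold lower in Mbd3abc KO (95% exact Clopper-Pearson interval 7.41 to 74.4, counting error only). As log2 ratios of means, the values were -3.58 in Mbd3ab KO, between -5.29 and -2.82 with either mutant library left out, and -4.26 in Mbd3abc KO, between -5.27 and -3.67. These ranges overlap widely, and the comparisons share the WT libraries. In Mbd3ab KO the deposited log2 fold change was -1.64 ± 0.42 (SE). In Mbd3abc KO it was -3.17 ± 0.58 (SE), with adjusted p = 2.72e-07 by the authors' DESeq2 test, lost in a DESeq2 refit without the second WT library.

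**Figure D2:**
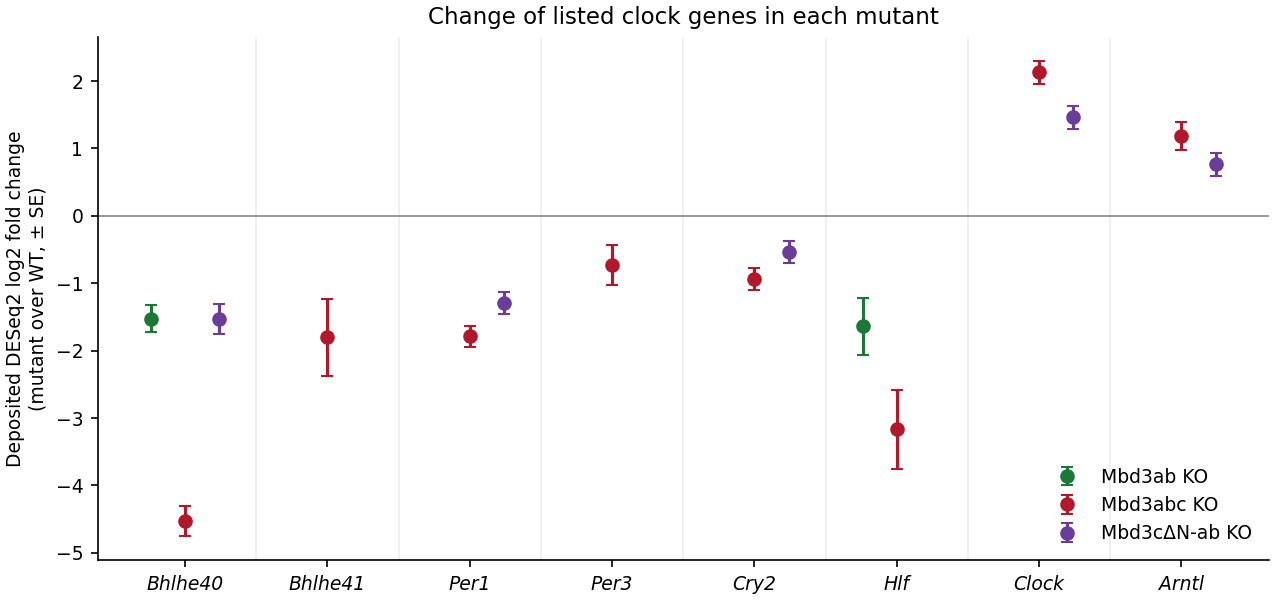
Deposited DESeq2 log2 fold change (mutant over WT) of each listed gene, with bars of 1 SE, by mutant. Bhlhe40 in Mbd3abc KO, at -4.53, lies lowest, and Clock, at 2.13 in Mbd3abc KO and 1.46 in Mbd3cΔN-ab KO, lies highest.

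Because longer transcripts give more reads, levels of different genes were set side by side per kilobase of transcript. In Mbd3abc KO the order of normalized reads per kilobase was Arntl (152 ± 23.8, SD, n = 2), Clock (81.7 ± 5.72), Cry2 (80.7 ± 2.66), Per1 (55.0 ± 1.40), Per3 (15.2 ± 4.20), Bhlhe40 (15.0 ± 4.02), Bhlhe41 (1.12 ± 0.46) and Hlf (0.34 ± 0.24). In WT of the same table it was Bhlhe40 (378 ± 3.88), Per1 (193 ± 14.6), Cry2 (156 ± 15.7), Arntl (65.6 ± 1.23), Per3 (25.8 ± 1.86), Clock (18.3 ± 1.66), Hlf (6.52 ± 1.18) and Bhlhe41 (5.56 ± 2.47). Bhlhe40, the most abundant of the listed genes per length in WT, thus stood near Per3 in Mbd3abc KO. Clock and Cry2, and Per3 and Bhlhe40, were neighbours whose libraries overlapped in Mbd3abc KO, as Hlf and Bhlhe41 did in WT.

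In Mbd3cΔN-ab KO the order per kilobase was Bhlhe40 (118 ± 29.0, SD, n = 2), Arntl (107 ± 2.53), Cry2 (101 ± 3.37), Per1 (73.1 ± 6.09) and Clock (49.1 ± 1.89). The libraries of Bhlhe40 and Arntl overlapped there, and no other neighbours did. Ratios within a library do not depend on its scaling. Clock to Bhlhe40, per kilobase, was 7.06 and 4.36 in Mbd3abc KO and 0.491 and 0.365 in Mbd3cΔN-ab KO, against 0.0512 and 0.0457 in WT. Clock to Per1 was 1.59 and 1.39 in Mbd3abc KO and 0.695 and 0.652 in Mbd3cΔN-ab KO, against 0.0959 and 0.0938 in WT. Activator transcripts thus outweighed Per1 in Mbd3abc KO libraries, and the order was the opposite for Clock in Mbd3cΔN-ab KO and WT. These genes differ in GC content, at 40.9% in Clock, 48.2% in Arntl and 59.4% in Per1. Called genes of like GC content had median log2 fold changes of 1.705, 0.625 and -1.115 in Mbd3abc KO. The part of GC content in these ratios was not tested. Arntl to Per1 was 3.13 and 2.42 in Mbd3abc KO and 1.59 and 1.37 in Mbd3cΔN-ab KO, against 0.327 and 0.355 in WT.

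The Mbd3abc KO and Mbd3cΔN-ab KO lines were compared directly, without WT as the control, over 5413 genes listed in both tables with the same transcript. The test was edgeR's quasi-likelihood test on recovered reads scaled together with TMM, and 361 genes, 6.67%, were called. Of the 5 members in both tables, 2 were called. Bhlhe40 had 37.1 and 52.8 jointly scaled reads in Mbd3abc KO, against 322 and 440 in Mbd3cΔN-ab KO, 8.46-fold lower. The log2 difference was -3.08 ± 0.24 (SE), with edgeR adjusted p = 0.00175, the 7th lowest of all 5413 genes. All 11 alternatives kept this call, with log2 differences between -3.37 and -2.83.

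Clock had 821 and 721 jointly scaled reads in Mbd3abc KO, against 495 and 502 in Mbd3cΔN-ab KO, a log2 difference of 0.63 ± 0.15 (SE) with edgeR adjusted p = 0.0476. This call held in 2 of 11 alternatives, with adjusted p between 0.0173 and 0.132, and was lost without any 1 of the 6 libraries. The remaining members did not pass the threshold. Per1 had 246 and 247 jointly scaled reads in Mbd3abc KO, against 339 and 366 in Mbd3cΔN-ab KO (log2 difference -0.52 ± 0.14 (SE), edgeR adjusted p = 0.0672). Cry2 had 309 and 314, against 420 and 422 (-0.43 ± 0.14, edgeR adjusted p = 0.0945), and Arntl had 480 and 373, against 336 and 312 (0.39 ± 0.18, edgeR adjusted p = 0.171). In each of these 3 genes the Mbd3abc KO libraries lie outside the Mbd3cΔN-ab KO libraries on the side away from WT. These differences did not pass the threshold after adjustment over the 5413 genes. Before adjustment the edgeR p was 0.00721 for Per1, 0.0178 for Cry2 and 0.0611 for Arntl.

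**Figure D3:**
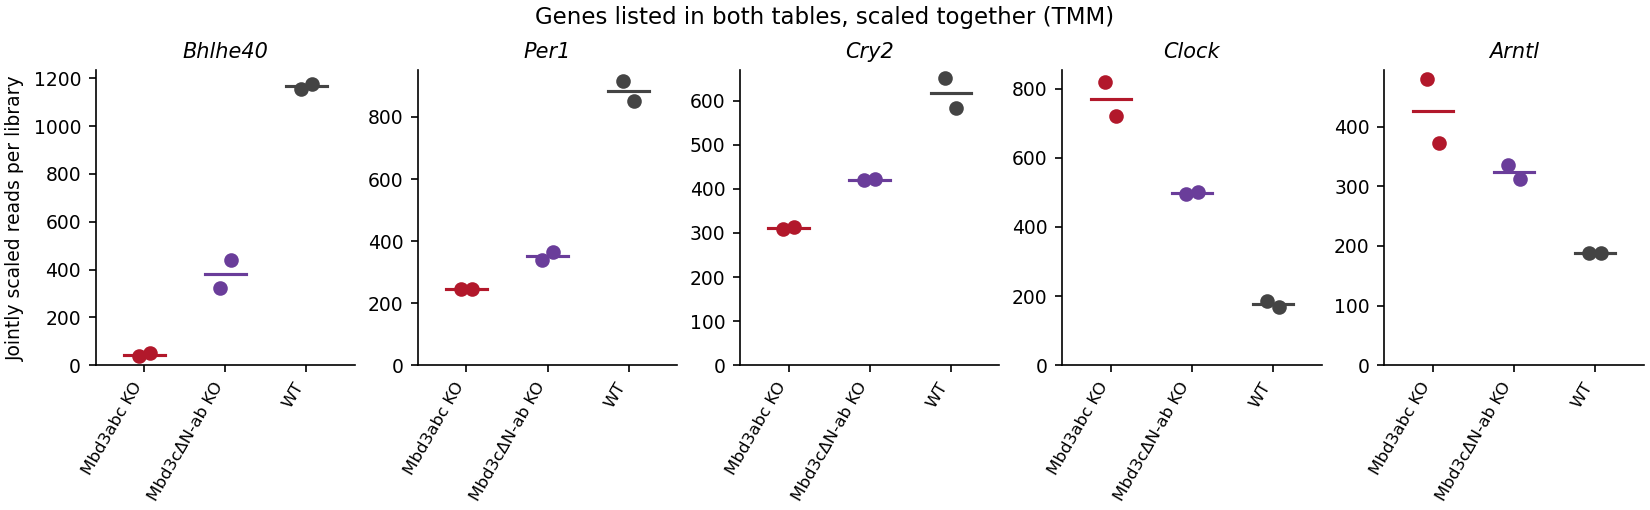
Jointly scaled reads per library (linear axis starting at 0) of the 5 genes listed in both tables, in Mbd3abc KO, Mbd3cΔN-ab KO and WT, with a bar at the mean of 2. Bhlhe40 in Mbd3abc KO, at 37.1 and 52.8, lies far below Mbd3cΔN-ab KO at 322 and 440, while the other genes differ less between the 2 mutants.

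Direction in these tables moves with the GC content of the transcript, so each gene was set beside called genes of like GC, in 20 classes per table. Bhlhe40 has 49.4% GC, and 51.0% of the genes in its class were higher in Mbd3abc KO, where 99.8% of the class lay above it. Bhlhe41 has 47.5% GC, with 98.0% of its class above it, and Hlf has 45.1% GC, with 91.9% of its class higher and 99.3% above it. These 3 genes lie at the low edge of their classes. Clock has 40.9% GC, and 98.8% of its class were higher in Mbd3abc KO, with 29.4% above Clock. Per1 has 59.4% GC, where 8.64% of its class were higher and 87.7% lay above it. Cry2 and Per3 lay near the middle of their classes, with 54.7% and 52.8% of genes above them, and Arntl had 22.2% above it. The rise of Clock and the falls of Cry2 and Per3 are thus of a direction and size common at their GC, and the part of GC content in them was not tested.

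In Mbd3cΔN-ab KO 98.3% of the class lay above Bhlhe40, 89.6% above Per1, 30.1% above Cry2, 30.9% above Clock and 36.8% above Arntl. In the direct comparison of the 2 mutants, classes of 270 genes of like GC had a median log2 difference of -0.08 for Bhlhe40, with 98.9% of the class above it, and 0.37 for Clock, with 22.2% above it. Bhlhe40 thus stood at the edge of its class there too, and Clock did not.

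**Figure D4:**
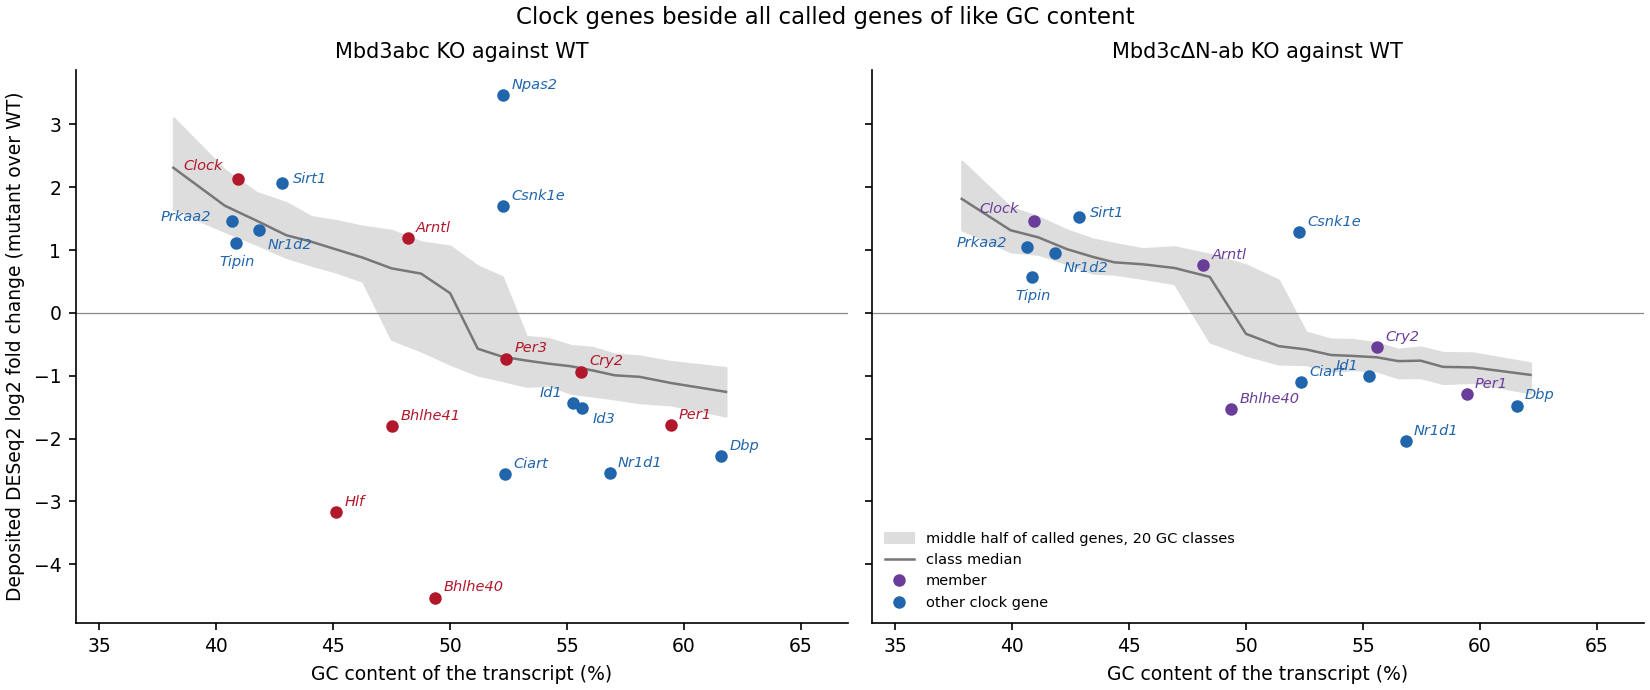
Deposited log2 fold change (mutant over WT) against GC content of the transcript (percent), for Mbd3abc KO and Mbd3cΔN-ab KO, with the median and interquartile range of all called genes in 20 GC classes. Listed members are red in Mbd3abc KO and purple in Mbd3cΔN-ab KO, and other clock genes blue. Bhlhe40, at -4.53, and Hlf, at -3.17, lie far below the genes of like GC in Mbd3abc KO, while Clock, Per3 and Cry2 lie close to them.

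Beyond the 10 genes, 37 further genes of the clock loop, its kinases, its ubiquitin ligases and its cofactors were read as a list. Shares of the list are over all 37, of which 13 were listed for no mutant and may not have been tested. Shares of all genes are over genes tested only. In Mbd3abc KO 22 of 37 were called, 13 higher and 9 lower, 59.5% of the list where 52.1% of all genes tested were. Their median log2 fold change was 0.68, against 0.46 over all called genes. In Mbd3cΔN-ab KO 19 of 37 were called, 12 higher and 7 lower, 51.4% of the list against 41.5% of all genes, with a median of 0.58 against 0.37. In Mbd3ab KO 4 were called, 10.8% of the list against 3.35% of all genes tested, with Npas2 and Csnk1e higher and Nr1d1 and Ciart lower. In Mbd3c KO none was called, against 0.353% of all genes.

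Nr1d1, Dbp and Ciart, known targets of the Clock and Arntl pair, were lower, while Nr1d2, also a target, was higher. Nr1d1 (REV-ERB alpha), the repressor of Arntl, had 54.1 and 52.5 normalized reads in Mbd3abc KO, against 306 and 347 in WT, 6.13-fold lower with a deposited DESeq2 adjusted p = 3.98e-28. It was 4.37-fold lower in Mbd3cΔN-ab KO, and in Mbd3ab KO it had 90.6 and 117 normalized reads, against 263 and 301 in WT. Dbp, the D-box activator of the same family as Hlf, had 28.0 and 29.6 normalized reads in Mbd3abc KO, against 140 and 160 in WT, 5.21-fold lower, and was 3.03-fold lower in Mbd3cΔN-ab KO. Ciart (Chrono), a repressor that acts on the same pair, had 25.1 and 42.9 normalized reads in Mbd3abc KO, against 255 and 203 in WT, 6.73-fold lower. Between the mutants Ciart was also lower in Mbd3abc KO than in Mbd3cΔN-ab KO, by a log2 difference of -1.55 with edgeR adjusted p = 0.0490, held in 3 of 11 alternatives. The inhibitors of DNA binding Id1 and Id3 were 2.85-fold and 3.90-fold lower in Mbd3abc KO, and the 2 mutant libraries of Id3, at 16.4 and 78.2, were far apart.

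Among the genes that rose, Npas2, a paralog of Clock, had 80 and 36 reads in Mbd3abc KO, against 0 and 3 reads in WT, a summed ratio of 37.2 (95% exact interval 12.4 to 183, counting error only), with a deposited DESeq2 adjusted p = 2.51e-07. In Mbd3ab KO its ratio was 16.4 (5.21 to 82.6). Sirt1, a deacetylase that binds Clock, was 4.22-fold higher in Mbd3abc KO, counted on different transcripts in the Mbd3abc KO and Mbd3cΔN-ab KO tables. Csnk1e, a kinase of the Per proteins, was 3.33-fold higher, Prkaa2 3.19-fold (232 and 578 normalized reads), Nr1d2 2.58-fold and Tipin 2.20-fold. Prkaa2, Nr1d2 and Tipin lie in GC classes of which 98.8% of genes were higher in Mbd3abc KO, with 63.5%, 59.5% and 84.7% of the class above them, while 0.494% lay above Npas2, 6.91% above Csnk1e and 15.3% above Sirt1. Among the genes that were lower, 98.3% of the class lay above Nr1d1, 98.0% above Ciart, 93.4% above Dbp, 84.2% above Id3 and 81.3% above Id1. Arntl2, a paralog of Arntl, was listed in Mbd3cΔN-ab KO only, 5.11-fold lower (2.48 to 11.8, counting error only), from 9 reads in the mutant against 48 in WT. Its call was lost in a DESeq2 refit with all 4 libraries and without any 1 of them.

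The genes whose deposited log2 fold changes lay nearest to those of Bhlhe40, by Euclidean distance over the 3 tables that list it and among 335 candidates, were Fgf17 (0.80), Dll1 (0.82), Stc2 (0.99), Accsl (1.02) and Lef1 (1.09). For Hlf, over 2 tables and 38 candidates, they were Fam183b (0.32), Bnip3 (1.48), Park2 (1.79), Lincenc1 (2.08) and Glod4 (2.11). Candidates were only genes listed in exactly the same tables as the gene and in no other. For Hlf, genes also listed in Mbd3cΔN-ab KO or Mbd3c KO were thus left out. The distances are descriptions of these values.

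Markers of cell types moved in the same libraries. Of all genes tested, 52.1% were called in Mbd3abc KO, 41.5% in Mbd3cΔN-ab KO and 3.35% in Mbd3ab KO. Summed levels cover only the markers called in that mutant, so they hold different genes in different mutants. Of 10 stem cell markers 7 were called in Mbd3abc KO, 3 higher and 4 lower, with summed levels of 31029 and 33174 normalized reads in the mutant against 43192 and 43009 in WT, and 4 in Mbd3cΔN-ab KO, with 16653 and 19369 against 28633 and 28980. In Mbd3abc KO Pou5f1 was 3.02-fold, Utf1 2.46-fold, Esrrb 1.89-fold and Fgf4 1.72-fold lower than in WT, while Klf4 was 1.95-fold, Sox2 1.40-fold and Tdgf1 1.31-fold higher. Of 5 trophectoderm markers 3 were called and higher in Mbd3ab KO (823 and 559 against 229 and 283) and in Mbd3abc KO (1708 and 951 against 266 and 325), and 2 higher and 1 lower in Mbd3cΔN-ab KO (728 and 418 against 161 and 202). Of 5 fibroblast markers 3 were called in Mbd3abc KO, 1 higher and 2 lower (820 and 726 against 2275 and 2048). Of 4 neural markers 3 were lower there (876 and 1197 against 2213 and 2293), with Pax6 at 0 in both mutant libraries. In Mbd3cΔN-ab KO 3 fibroblast markers were called, 1 higher and 2 lower (1029 and 1182 against 2159 and 1957). There 3 neural markers were lower (1014 and 1026 against 2100 and 2192). In Mbd3ab KO the fibroblast marker Vim was lower and no neural marker was called. In Mbd3c KO, where 0.353% of all genes tested were called, the trophectoderm marker Krt18 was higher (deposited log2 fold change 1.42). The trophectoderm marker Cdx2 was listed in none of the tables. The part of these shifts in the clock gene values was not tested.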

How the data were processed

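Ribosome-depleted, strand-specific RNA-seq of 10 libraries, 2 per group, was analysed from 4 deposited tables, 1 per mutant against WT. Reagents of 2 suppliers were used for depletion, per the labels' protocols, with no supplier named for any one library. The submitters' processing notes name TopHat2, HOMER, DESeq2 and mm10, and give no versions. Exonic reads were counted strand-specifically with HOMER (option -strand -) and condensed to 1 row per gene, per the file headers. For each library the authors deposited a normalized signal. They also deposited a DESeq2 log2 fold change, its SE, and raw and adjusted p-values. The score column as deposited, the Wald statistic, was not used.

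Reads were recovered by dividing each column by its step (100% of values whole within 0.006), except the mutant columns of the Mbd3c KO table, which were not assessed. Folds are ratios of mean normalized reads. Calls are the authors' at an adjusted p of 0.05. The number of genes tested was recovered from p and adjusted p. Refits against WT used the listed genes only, with p adjusted for that number. The 2 mutants were compared with edgeR 4.0.16 (quasi-likelihood, TMM) in R 4.3.3, with WT in the fit, tested first on simulated data. Alternatives used DESeq2 1.42.0, limma 3.58.1 on log2(value + 1), other scalings and filters, and leaving out each library, where a lone library is assumed to vary like the others. GC content came from GENCODE M21 transcripts, matched for at least 97.4% of called genes in each table. Columns are tied to groups, not to replicate numbers.

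The members, gene lists and tests were chosen with earlier results of these data known. Named are all 10 members, the 12 further clock genes with the largest absolute deposited log2 fold change in Mbd3abc KO (1 of which is not reported here), the 5 genes nearest to Bhlhe40 and to Hlf, and Mbd3. Arntl2 and the marker genes were named after their values were seen.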

Additional observations from a re-analysis of the deposited data

Results flagged for a closer look

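Bhlhe40 and Clock differed between mutants in a test of the difference itself. Bhlhe40 was lower in Mbd3abc KO than in Mbd3cΔN-ab KO, by a log2 difference of -3.08 with edgeR adjusted p = 0.00175, and both Mbd3abc KO libraries lay below both Mbd3cΔN-ab KO libraries. Clock was higher in Mbd3abc KO than in Mbd3cΔN-ab KO, by a log2 difference of 0.63 with edgeR adjusted p = 0.0476, again with no overlap of libraries. The Clock call was lost in all but 2 of 11 alternatives, and genes of like GC content had a median log2 difference of 0.37, while the Bhlhe40 call held in 11 of 11.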

How the results depend on the processing

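No member's value changed direction under any alternative that was run. Between Mbd3abc KO and Mbd3cΔN-ab KO the uncalled log2 differences of Csnk1e (0.30, alternatives -0.06 to 0.77), Prkaa2 (0.49, -0.29 to 0.99) and Id1 (-0.33, -0.79 to 0.46) changed sign. Of 10 members, Mbd3ab KO kept 1 call above the median mean level, 1 in the DESeq2 refit (1.81% of all genes tested) and 0 in the edgeR and limma refits, which called 0 of all listed genes there while before adjustment p was under 0.05 for each of the 443 with either tool, and leaving out 1 library gave 0 to 2, where 0.053% to 2.15% of all genes tested were called. Mbd3abc KO kept 4 above the median mean level and 5 to 6 with 1 library left out, where 22.5% to 35.2% of all genes were called. Mbd3cΔN-ab KO kept 3 at 2-fold or more, 3 among genes above the median level and 3 with 1 library left out, where 18.9% were called at 2-fold or more and 11.2% to 26.3% with 1 library left out. The further clock genes called in Mbd3abc KO numbered 14 at 2-fold or more (32.1% of all genes), 14 among genes above the median level and 13 to 20 with 1 library left out. In Mbd3cΔN-ab KO they numbered 9, 12 and 6 to 14. The count of members called between Mbd3abc KO and Mbd3cΔN-ab KO fell to 1, Bhlhe40, with median-of-ratios size factors, with limma, with only the 4 mutant libraries and without any 1 library. Fewer libraries or genes enter several of these settings, among them all refits against WT, which used the listed genes only. For the rest the cause was not tested. The median is that of the listed genes, so this filter removes listed genes by definition. No share of all genes was computed for it. In Mbd3ab KO the filter kept Bhlhe40, while the DESeq2 refit with all 4 libraries kept Hlf, which had 1 and 3 mutant reads. Scaling to equal totals of listed genes shifted log2 values by 0.10 in Mbd3ab KO, 0.09 in Mbd3abc KO and 0.16 in Mbd3cΔN-ab KO. No paired analysis was possible because the mutant columns carry names that match no replicate number in the labels, although the WT columns are numbered. Few reads limit Hlf, Bhlhe41, Npas2 and Arntl2.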
